A study of Mus musculus with 12 samples.

Results

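The 39 protein-coding Hox genes of the mouse were taken from a table of 46603 genes by symbol alone: the letters Hox, a cluster letter from a to d, and a paralog number. The table holds bulk RNA-seq read counts from 12 libraries of ileum and of synovium dissected from the ankle. There were 4 groups of 3 biological replicates: WT ileum, TNFdARE ileum, WT synovium and TNFdARE synovium. TNFdARE mice carry a Tnf gene that lacks the AU-rich element through which Tnf mRNA is normally destabilised, and such mice, as background, are prone to inflammation of the ileum and the joints. WT animals were littermates. The labels give no age, sex or treatment, and they do not say whether ileum and synovium came from the same animals. The study compared the genotypes within each tissue, and the tissues are compared here because Hox genes mark position.

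Hox genes encode homeodomain transcription factors. They lie in 4 clusters, and the order of genes along a cluster follows the order in which they are used along the head-to-tail axis of the embryo: low paralog numbers act toward the head and high numbers toward the tail. In the limb the Hoxa and Hoxd genes of paralog groups 9 to 13 pattern the segments from shoulder or hip to digit, with group 11 known for the middle segment and group 13 for the wrist, ankle and digits. In the gut, Hox genes are used mainly in the mesenchyme and help to set regional identity. Adult fibroblasts are known to keep a Hox pattern that reflects where in the body they lie.

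Total counts ran from 14267834 to 16224402 per library, and the Hox genes together received from 3293 to 4470 of them. Summed epithelial and fibroblast markers matched the tissue labels. Intestinal epithelial genes (all 10 listed genes detected) summed to 17591 to 25722 CPM in ileum and 34.6 to 47.6 CPM in synovium, and fibroblast genes (all 8) to 1663 to 2739 CPM in ileum and 43425 to 85557 CPM in synovium. The synovium libraries were not synovial membrane alone. In WT synovium, skeletal muscle markers summed to 9027 to 18706 CPM, beside 13691 to 15952 CPM for synovial lining. Chondrocyte markers summed to 2624 to 3531 CPM there and osteoblast markers to 1827 to 2640 CPM. Smooth muscle markers summed to 3733 to 4456 CPM in WT ileum and 1707 to 2094 CPM in WT synovium. CPM is the usual depth-normalised count, with library sizes scaled by trimmed mean of M values (TMM). In bulk tissue, fewer cells of a type and less RNA per cell cannot be told apart. The part of these differences in cell types in the Hox results was not tested. Replicates of a group differed by a chi-square of 11.2 to 92.9 per gene, where read sampling alone gives about 1, so each was counted as a sample of its own.

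The Hoxa cluster lies on the minus strand of chromosome 6, with Hoxa2 starting the stretch described here at base 52162417 and Hoxa13 ending it at 52260880 (GRCm38). Hoxb is on the plus strand of chromosome 11, from 96194316 at Hoxb13 to 96368256 at Hoxb1. Hoxc is on the plus strand of chromosome 15, from 102921103 at Hoxc13 to 103036852 at Hoxc4, and Hoxd is on the plus strand of chromosome 2, from 74668310 at Hoxd13 to 74765142 at Hoxd1. They hold 11, 10, 9 and 9 of the genes.

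Because paralogs of 1 number share much of their homeobox, the part of the gene that encodes the DNA-binding domain, the letters show how far reads can tell them apart. All 39 genes hold a homeobox of 180 bases. The last 60 bases, 121 to 180, are shown for Hoxa13 and Hoxd13, the pair of group 13 genes with the most counts, neither of which had a count in ileum. They were read 5′ to 3′ from GENCODE M21 transcripts, and capitals mark bases of Hoxd13 that differ from Hoxa13.
Hoxa13: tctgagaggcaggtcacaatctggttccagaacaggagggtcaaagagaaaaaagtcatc
Hoxd13: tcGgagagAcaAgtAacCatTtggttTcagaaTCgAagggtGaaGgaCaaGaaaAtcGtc
Over these 60 bases Hoxd13 differed from Hoxa13 at 16 positions. Over the whole homeobox, the 42 pairs of genes with the same paralog number were 67.2% to 93.9% identical (median 80.6%), against a median of 60.6% over the 699 other pairs. The longest run of identical bases shared by any pair was 52, shorter than the 100 cycles of the reads.

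Some counts are still shared with a neighbour on the same DNA. Hoxd3 and Hoxd4 have 62.3% and 52.3% of their annotated exon bases in common with other annotated exons on the same strand, so their counts are uncertain. Hoxd10 and Hoxd11 share 5.73% and 10.8% of theirs with the annotated gene Gm28309, and Hoxc5 and Hoxc10 share 5.37% and 8.70% with each other. On the opposite strand, annotated antisense transcripts cover 52.9% of the exon bases of Hoxb3, 35.0% of Hoxa11, 27.3% of Hoxb2, 25.4% of Hoxa3 and 20.4% of Hoxa7. Whether counting used strand is not given in the sources used here.

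Of the 39 genes, 37 had at least 1 count. Hoxb1, a hindbrain gene, and Hoxd12 were at 0 in all 12 libraries. Hoxb13, a hindgut and tail gene, had 2 counts in a single TNFdARE synovium library, Hoxc12 had 4 counts and Hoxc13 28 counts, all in synovium, and Hoxd1 had 3 counts in all. Hoxd3 had 70 counts over the 12 libraries. These 7 genes fell below the filter on low counts, and the other 32 were tested.

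In ileum the Hoxb cluster dominated. Levels between genes are compared as CPM per kb of annotated exon. Hoxb6, a trunk gene, was highest with a mean of 30.1 CPM per kb (SD 8.97, n = 6), and Hoxb9, a posterior trunk gene, followed at 25.2 (SD 4.69, n = 6). Their ranges, 17.6 to 38.9 and 17.8 to 29.8, overlapped. Hoxb7 at 11.7 (SD 1.85), Hoxb5 at 8.45 (SD 1.87), a gene known for its part in the enteric nervous system, and Hoxb8 at 6.25 (SD 1.14) came next, then Hoxb4 and Hoxb3. The first Hox gene from another cluster was Hoxc6 at 4.61 (SD 0.778).

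In synovium 4 of the 5 highest genes belonged to paralog groups 10 to 13, and the other was Hoxd8. Hoxa11, the zeugopod gene of the Hoxa cluster, had a mean of 11.7 CPM per kb and ran from 8.79 to 15.9 over 6 libraries. Hoxa10 had a mean of 9.33 (SD 1.67), Hoxd8 ran from 6.17 to 8.09, Hoxa13 from 4.57 to 9.11 and Hoxc10 from 4.68 to 9.76. Hoxa11 was above Hoxa10 in each of the 6 libraries, and its lowest library was above the highest of Hoxd8. The ranges of Hoxd8, Hoxa13 and Hoxc10 overlapped.

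The shares of each cluster in the summed Hox level did not overlap between the tissues for any of the 4, when levels were taken per kb of exon. Without division by length the Hoxc shares did overlap, at 9.80% to 15.7% in ileum and 12.9% to 17.5% in synovium. Hoxb made up 74.9% to 82.2% of the sum in the 6 ileum libraries and 7.30% to 10.3% in the 6 synovium libraries. Hoxa made up 4.74% to 7.93% in ileum and 49.8% to 57.2% in synovium. Hoxc reached 9.17% to 14.8% in ileum and 16.0% to 21.5% in synovium, and Hoxd 2.15% to 5.36% against 13.1% to 24.0%. By position, paralog groups 10 to 13 held 0.257% to 1.77% of the sum in ileum and 46.7% to 52.1% in synovium. Group 9 alone kept the ileum share of groups 9 to 13 at 24.0% to 26.2%, through Hoxb9.

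**Figure D1:**
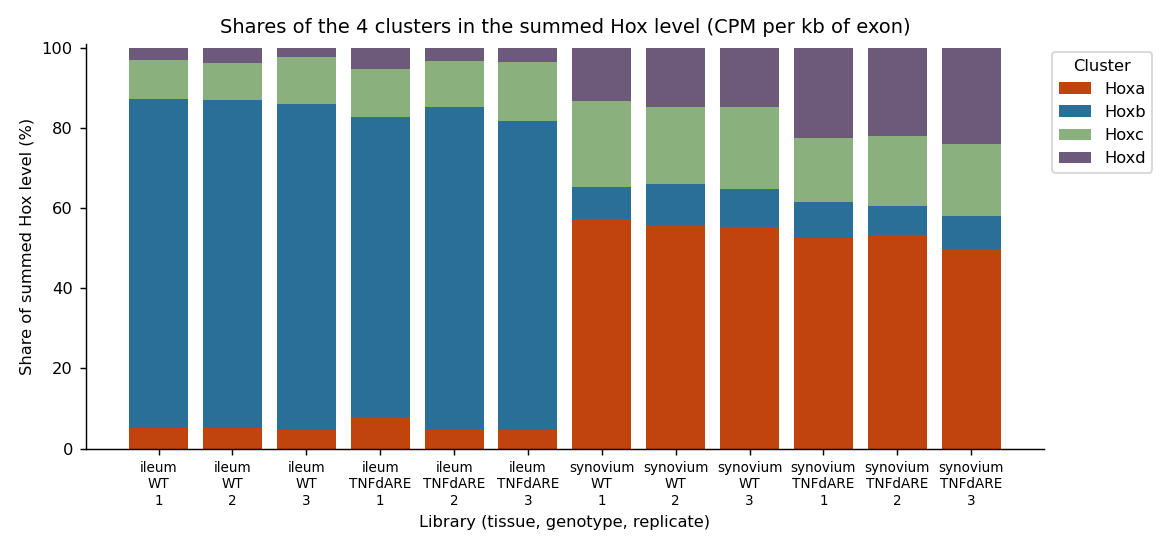
Each bar is 1 library; the vertical axis gives the share, in percent, of each Hox cluster in the summed level of all Hox genes (CPM per kb of exon). Hoxb fills 74.9% to 82.2% of the ileum bars, Hoxa 49.8% to 57.2% of the synovium bars, and the Hoxd share is larger in TNFdARE than in WT synovium. The summed level itself, not drawn, is lower in TNFdARE than in WT synovium.

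**Figure D2:**
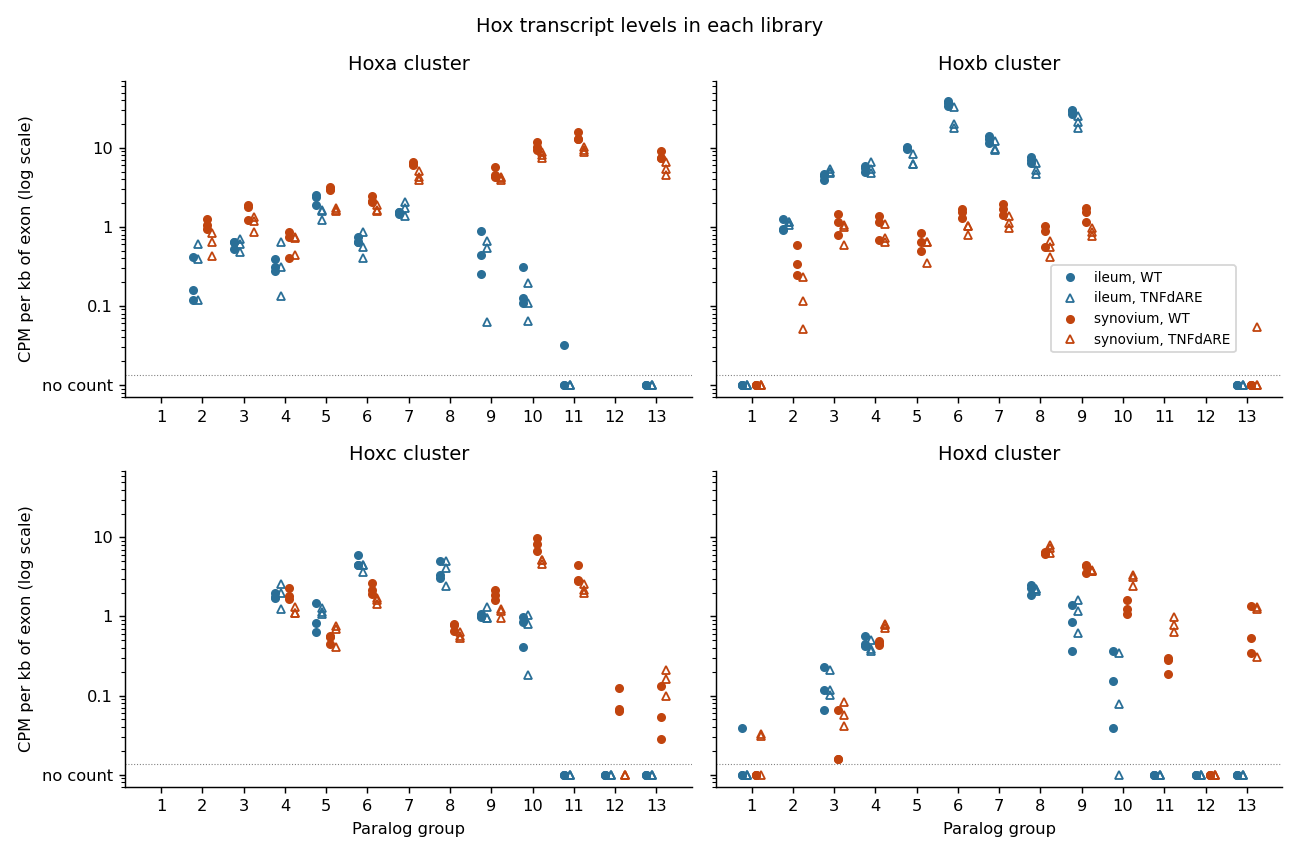
Points are single libraries, with the level of each Hox gene drawn (CPM per kb of exon, log axis, "no count" below the dotted line) against its paralog group; filled circles are WT, open triangles TNFdARE, blue ileum and orange synovium. In the Hoxb panel the ileum points of groups 2 to 9 lie above those of synovium, while in the other panels the ileum points drop toward no count from group 10 or 11 on.

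Between WT synovium and WT ileum, 18 of the 32 tested Hox genes were higher in synovium and 11 were lower, by edgeR's quasi-likelihood test at a Benjamini-Hochberg adjusted p under 0.05. The tissues differed so widely that 38.2% of all 16964 tested genes were called higher and 36.0% lower, so being called is not in itself a result about Hox genes. With a fold of at least 4 added, 12 Hox genes were higher and 7 lower, against 15.6% and 11.6% of all genes. The direction depended on the cluster: 10 of 11 Hoxa genes and 5 of 6 tested Hoxd genes were higher in synovium, and all 8 tested Hoxb genes were lower. Hoxc split by position, with Hoxc9, Hoxc10 and Hoxc11 higher and Hoxc5, Hoxc6 and Hoxc8 lower. Hoxa4, Hoxc4 and Hoxd4, all of group 4, were not called. The 3 libraries of each tissue did not overlap for 19 genes that were higher and 11 that were lower, against 40.3% and 38.2% of all genes.

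Among paralog groups 9 to 13, 11 of 12 tested genes were higher in synovium and Hoxb9 was lower. Of groups 5 to 8, 4 were higher and 7 lower, and of groups 1 to 4, 3 were higher, 3 lower and 3 not called. Across the genes of a cluster, the rank correlation (Spearman) between paralog number and the fitted log2 difference was 0.70 for Hoxa (11 genes), -0.74 for Hoxb (8), 0.64 for Hoxc (7) and 1.0 for Hoxd (6). These correlations describe the genes and carry no p, since all points come from the same 6 libraries and neighbouring genes are not independent. The ranks include genes with 0 or 1 ileum counts, whose fitted values depend on the prior count that the fit adds. Hoxd11 and Hoxd13 both had 0 ileum counts, so their order within Hoxd rests on their synovium counts. The Hoxb genes thus ran the other way: their deficit in synovium was -1.39 (log2) at Hoxb2 and -4.28 at Hoxb9. The run was not steady, with the largest deficit at Hoxb6 (-4.60) and smaller ones at Hoxb7 (-2.94) and Hoxb8 (-3.09).

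**Figure D3:**
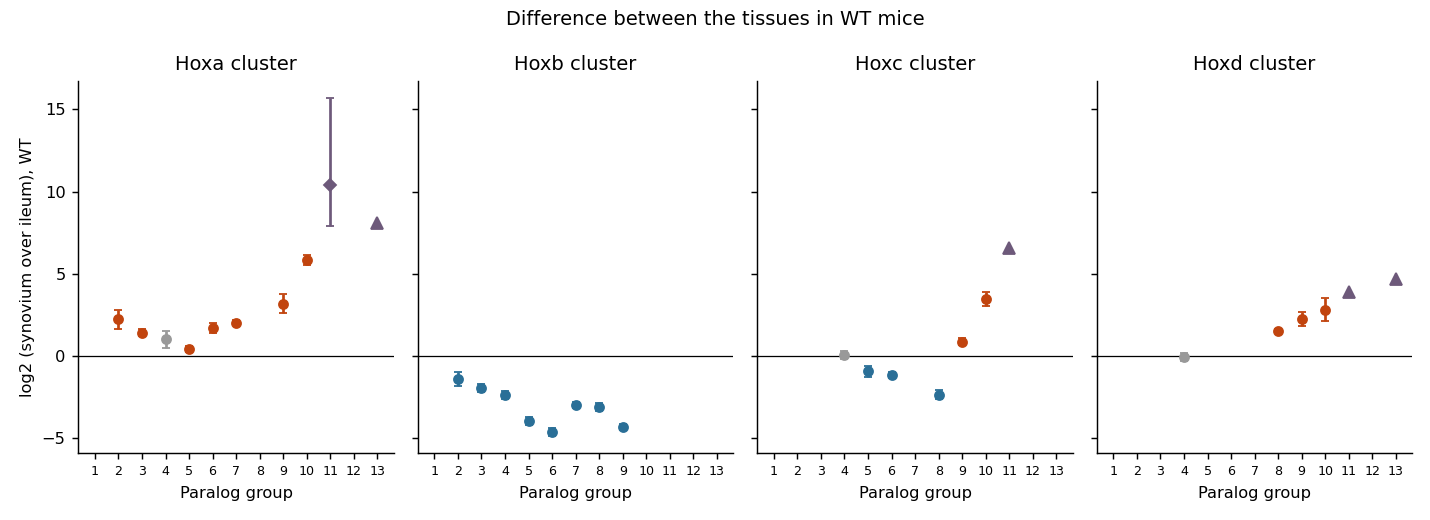
The log2 ratio of synovium over ileum in WT mice is plotted against paralog group, 1 panel per cluster; circles are fitted values with 1 SE (orange higher, blue lower, grey not called). Triangles are lower bounds for genes at 0 counts in WT ileum and the diamond is the count ratio of Hoxa11 with its 95% interval; all Hoxb points lie below 0 and all Hoxa points above it.

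The 5 tested genes at the posterior end had at most 1 count over the 6 ileum libraries. Hoxa13, known for the distal limb, stood at 22.5, 18.3 and 18.4 CPM in WT synovium and at 16.2, 13.4 and 11.3 CPM in TNFdARE synovium. No count of it was found in any of the 6 ileum libraries. With the 1588 synovium counts set against a floor of 3 counts over all ileum libraries, Hoxa13 was at least 475-fold higher in synovium. Hoxc11, Hoxd11 and Hoxd13 were also at 0 in all ileum libraries, with 542, 219 and 205 synovium counts, and were at least 162-, 65.5- and 61.3-fold higher. Hoxc11 stood at 9.07, 5.86 and 5.74 CPM in WT and at 4.37, 4.03 and 5.21 CPM in TNFdARE synovium. Hoxa11 had 1 count in a WT ileum library and 2545 in synovium, a ratio of 2284 with a 95% exact counting interval of 410 to 90200. Hoxc13, with no ileum counts, was at least 8.38-fold higher. These bounds and intervals cover counting error only. For these 5 genes no fitted fold change is given, since it would depend on the prior count that the fit adds.

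Group 10 showed the same direction with some ileum signal. Hoxa10, a gene of the proximal limb and the reproductive tract, stood at 0.416, 1.02 and 0.352 CPM in the WT ileum libraries and at 39.3, 30.8 and 33.7 CPM in WT synovium. The groups were far apart, and the log2 difference was 5.85 (SE 0.32, adjusted p = 3.2e-08 by edgeR). Hoxc10, a hindlimb gene, had 1.87, 1.61 and 0.774 CPM in WT ileum and 18.6, 12.7 and 16.0 CPM in WT synovium, a log2 difference of 3.47 (SE 0.44). Hoxd10 rested on 14 counts in WT ileum and 108 in WT synovium, and differed by 2.82 (SE 0.71). Its ileum libraries were uneven, at 0.277, 0.657 and 0.0704 CPM.

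Group 9 split by cluster. Hoxb9 stood at 69.8, 76.8 and 75.5 CPM in WT ileum and at 4.50, 2.93 and 3.98 CPM in WT synovium, a log2 difference of -4.28 (SE 0.18). Hoxa9 went the other way with 2.49, 4.89 and 1.41 CPM in WT ileum and 31.7, 23.8 and 25.1 CPM in WT synovium, a difference of 3.20 (SE 0.56). Hoxd9 was higher in synovium by 2.25 (SE 0.41) and Hoxc9 by 0.88 (SE 0.20). No library of WT ileum overlapped with one of WT synovium for these 4 genes. Of the 100-base stretches in the annotated transcripts of these 4 genes, 0% were shared with transcripts of any other gene. Whether the reads themselves were assigned to the right paralog was not tested.

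The Hoxb genes below group 9 were lower in synovium by differing amounts. Hoxb6 had 73.2, 76.4 and 66.0 CPM in WT ileum and 2.56, 2.99 and 3.33 CPM in WT synovium, a log2 difference of -4.60 (SE 0.24). Hoxb5 had 27.9, 27.0 and 28.7 CPM against 1.80, 2.34 and 1.37 CPM, a difference of -3.92 (SE 0.24). Hoxb8, known for a small haematopoietic and microglial lineage as well as for the trunk, had 20.3, 16.9 and 18.6 CPM against 1.45, 2.73 and 2.35 CPM and differed by -3.09 (SE 0.24). In none of these did the tissues overlap.

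Hoxb7 stood at 17.9, 20.1 and 21.9 CPM in WT ileum and 2.98, 2.21 and 2.61 CPM in WT synovium, a difference of -2.94 (SE 0.18). Hoxb4, Hoxb3 and Hoxb2 differed by -2.36, -1.94 and -1.39. Hoxb2 was the least changed, with 3.26, 3.21 and 4.36 CPM in WT ileum and 1.18, 2.08 and 0.848 CPM in WT synovium (SE 0.40, adjusted p = 0.00857). Its groups did not overlap, but 27.3% of its exon bases lie opposite an annotated antisense transcript.

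The rest of the Hoxa cluster was higher in synovium by smaller amounts. Hoxa2 differed by 2.24 on the log2 scale (SE 0.56), an estimate that rested on 17 ileum counts, and Hoxa7 by 2.04 (SE 0.16). Hoxa6 differed by 1.70 (SE 0.29) and Hoxa3, a gene of the pharyngeal arches, by 1.43 (SE 0.23). Hoxa5, known in lung and gut mesenchyme, stood at 4.50, 3.58 and 4.71 CPM in WT ileum and 5.61, 5.99 and 5.48 CPM in WT synovium. Its difference of 0.42 (SE 0.17, adjusted p = 0.0467) did not hold without any 1 of the 6 WT libraries (adjusted p from 0.0649 to 0.211).

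In the Hoxc cluster the sign turned between Hoxc8 and Hoxc9. Hoxc8, a thoracic gene, had 8.73, 9.49 and 14.1 CPM in WT ileum and 1.87, 2.21 and 2.28 CPM in WT synovium, a difference of -2.34 (SE 0.28). Hoxc6 differed by -1.14 (SE 0.18). Hoxc5 differed by -0.92 (SE 0.34, adjusted p = 0.0271), a call that was lost without WT ileum replicate 3 (-0.53, adjusted p = 0.151) or WT synovium replicate 2 or 3 (adjusted p = 0.0836 and 0.0533). Hoxc4 had nearly equal means, 4.69 and 4.96 CPM, with a difference of 0.08 (SE 0.25).

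Hoxd8 stood at 6.31, 6.86 and 5.07 CPM in WT ileum and 17.8, 16.9 and 17.2 CPM in WT synovium, a difference of 1.51 (SE 0.13). Hoxd4 had 1.25, 1.68 and 1.34 CPM against 1.45, 1.37 and 1.30 CPM, overlapping groups and a difference of -0.05 (SE 0.23). Its counts are among those shared with Hoxd3.

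The same contrast among TNFdARE mice gave 16 higher and 12 lower Hox genes, against 31.6% and 35.0% of all genes. At a fold of at least 4 there were 9 each way, against 10.5% and 11.9%. All 8 tested Hoxb genes were again lower, from -2.51 at Hoxb3 to -4.64 at Hoxb9, and all 6 tested Hoxd genes were higher. Hoxb6 stood at 34.7, 64.3 and 39.6 CPM in TNFdARE ileum and at 2.04, 1.56 and 2.03 CPM in TNFdARE synovium. For Hoxa10 the TNFdARE values were 0.635, 0.352 and 0.211 CPM in ileum and 28.8, 24.1 and 26.5 CPM in synovium, and for both genes the tissues lay far apart. Hoxa2, Hoxa4, Hoxa5 and Hoxc9 were not called. Hoxc4 was lower in synovium at -0.72 (SE 0.25, adjusted p = 0.0247), and leaving out any of 4 of the 6 libraries raised that p to between 0.0675 and 0.128. Hoxd4 was higher at 0.88 (SE 0.22, adjusted p = 0.00452).

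Promoter sequence was compared because the Hoxa, Hoxb and Hoxd genes called in WT each lay on 1 side, while Hoxc split. RefSeq start sites on GRCm38.p6 gave 24 windows of 300 bases for 22 of the 39 genes. The only Hoxc gene among them was Hoxc4, which was not called in WT, and the only Hoxb genes were Hoxb1, Hoxb4 and Hoxb8. The windows therefore cannot address the Hoxc split, and the clusters were not compared with each other. Only the 250 bases of each window that lie before the start were used. Over these bases a Hox window held a median of 12.5 CpG dinucleotides, against 6 over all 32851 windows. The 120 bases before the start are shown for Hoxa13 (chr6:52260881-52261000, minus strand), which had no ileum count, for Hoxb8 (chr11:96281785-96281904, plus strand), which was higher in ileum, and for Hoxd10 (chr2:74691771-74691890, plus strand), which differed between the genotypes in synovium. Capitals mark each CpG.
Hoxa13: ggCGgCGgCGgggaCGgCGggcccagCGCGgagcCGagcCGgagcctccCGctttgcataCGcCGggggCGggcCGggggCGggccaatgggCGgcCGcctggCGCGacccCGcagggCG
Hoxb8: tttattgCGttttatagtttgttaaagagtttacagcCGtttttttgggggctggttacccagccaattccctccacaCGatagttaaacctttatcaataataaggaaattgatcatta
Hoxd10: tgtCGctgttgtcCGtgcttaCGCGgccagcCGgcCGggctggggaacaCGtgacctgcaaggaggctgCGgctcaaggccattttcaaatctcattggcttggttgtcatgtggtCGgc
These stretches hold 21, 3 and 9 CpG. Motif letters were searched on both strands of the 250 bases before the start in each window. The CDX motif GCAATAAA was in 1 Hox window, that of Hoxb8, and in 0.871% of all windows, and its variant CCAATAAA was in none of the Hox windows and in 1.02% of all. The PBX and HOX motif TGATTGAT was in the windows of Hoxa2 and Hoxd11 and in 0.67% of all. TGACAG, a MEIS motif, was in the windows of Hoxa2 and Hoxa3 and in 15.9% of all. A match says only that the letters are present in the window.

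In ileum, no Hox gene was called between TNFdARE and WT among the 22 that passed the filter, by edgeR in the 6 ileum libraries. Over all 15462 genes tested there, 4.12% were called higher and 1.57% lower. The unadjusted p was under 0.05 for 5 Hox genes, namely Hoxa5, Hoxb5, Hoxb6, Hoxb8 and Hoxb9, each with an estimate below 0, against 30.5% of all genes. DESeq2 called 1 of the 22, Hoxb5 (adjusted p = 0.0134). The 3 genes of smallest p were Hoxb5, Hoxb9 and Hoxa5.

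Hoxb5 stood at 27.9, 27.0 and 28.7 CPM in WT ileum and at 17.4, 23.1 and 17.2 CPM in TNFdARE ileum, with an estimate of -0.53 (SE 0.13, adjusted p = 0.0603). Hoxb9 stood at 69.8, 76.8 and 75.5 CPM against 45.9, 65.8 and 55.4 CPM, with -0.41 (SE 0.13, adjusted p = 0.0998). Hoxa5 stood at 4.50, 3.58 and 4.71 CPM against 2.29, 3.03 and 2.95 CPM, with -0.63 (SE 0.21, adjusted p = 0.11). The groups did not overlap for any of the 3. In all, 5 Hox genes lay wholly below WT and 1 wholly above, against 18.4% and 18.9% of all genes.

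The second TNFdARE ileum library lay nearest to WT for these Hoxb genes, and without it 4 were called lower: Hoxb6 at -0.94 (adjusted p = 0.00106), Hoxb5 at -0.67 (0.00281), Hoxb9 at -0.53 (0.00856) and Hoxb8 at -0.50 (0.0284). The share of all genes called without that library is not given, so the 4 calls are not read as a result about Hox genes. That library also had the lowest leukocyte marker sum of the 3, 562 CPM against 1229 and 1916 CPM, with 215 to 296 CPM in WT ileum. Neutrophil markers (6 of 6 detected) summed to 162 CPM in it, to 353 and 593 CPM in the other two, and to 10.6 to 16.4 CPM in WT. Smooth muscle markers (7 of 7) summed to 3966 CPM in it, to 2803 and 2870 CPM in the other two and to 3733 to 4456 CPM in WT. Epithelial markers (10 of 10) summed to 23056 CPM in it, to 17591 and 21716 CPM in the others and to 24866 to 25722 CPM in WT. Fibroblast markers (8 of 8) summed to 2739 CPM in it, to 2252 and 2456 CPM in the others and to 1663 to 1970 CPM in WT. Enteric neuron and glia markers (8 of 8) summed to 65.2 CPM in it, to 49.8 and 44.5 CPM in the other two and to 65.3 to 74.6 CPM in WT, and none of the 8 was called. The part of these cell types in the Hox values was not tested.

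In synovium, 7 of the 32 tested Hox genes differed between the genotypes. Hoxd10 and Hoxd11 rose in TNFdARE mice, and Hoxa5, Hoxa7, Hoxa11, Hoxc9 and Hoxc10 fell. Over all 15599 genes tested in synovium, 13.1% were called higher, 10.7% lower and 23.8% in either direction, a share close to that of the Hox genes. The estimates lay below 0 for 26 of the 32, with a median of -0.42 against 0.0 over all genes. All 11 Hoxa genes, all 8 Hoxb genes and 6 of 7 Hoxc genes had estimates below 0, while 5 of 6 Hoxd genes had estimates above 0 (median 0.56). Groups did not overlap for 17 genes that were lower and 3 that were higher, against 23.2% and 20.7% of all genes.

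Hoxd11, a gene of the middle limb segment, stood at 1.18, 0.781 and 1.24 CPM in WT synovium and at 3.24, 2.65 and 4.11 CPM in TNFdARE synovium. Every TNFdARE library was above every WT library, and the log2 difference was 1.67 (SE 0.30, adjusted p = 0.00874 by edgeR). Hoxd10 stood at 1.94, 2.28 and 2.94 CPM in WT and at 5.69, 4.44 and 6.08 CPM in TNFdARE, again without overlap, with a difference of 1.20 (SE 0.24, adjusted p = 0.0128). Both calls held without any single library (adjusted p at most 0.0345 for Hoxd11 and 0.0494 for Hoxd10). Hoxd10 was not called where all 12 libraries shared 1 spread (1.18, adjusted p = 0.155), and its ileum counts were few and uneven. The counts behind these values were 108 against 277 for Hoxd10 and 48 against 171 for Hoxd11, summed over 3 libraries each.

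Their cluster neighbours did not all pass the test. Hoxd4 had 1.45, 1.37 and 1.30 CPM in WT and 2.28, 2.13 and 2.37 CPM in TNFdARE synovium, groups that did not overlap, with an estimate of 0.74 (SE 0.24, adjusted p = 0.0577). Hoxd8 had an estimate of 0.24 (SE 0.11), and Hoxd9 of -0.09 (SE 0.14). Hoxd13 was uneven in both genotypes, with 1.32, 3.38 and 0.848 CPM in WT and 3.06, 3.28 and 0.753 CPM in TNFdARE, and an estimate of 0.38 (SE 0.68). Replicate 3 was low in both groups. The Hoxd share of the summed Hox level was 13.1% to 14.7% in WT synovium and 21.9% to 24.0% in TNFdARE synovium. The sum itself was lower in TNFdARE synovium, at 70.3 to 76.0 CPM per kb against 88.9 to 102 in WT. The Hoxd share therefore rose by more than the Hoxd level.

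Hoxa11, the Hoxa counterpart of Hoxd11, moved the other way. It stood at 36.4, 30.0 and 29.4 CPM in WT synovium and at 21.3, 20.1 and 23.4 CPM in TNFdARE synovium, and fell by 0.53 on the log2 scale (SE 0.11, adjusted p = 0.0155). The groups did not overlap. That call was just missed with all 12 libraries in the fit (adjusted p = 0.0524). The ratio of Hoxd10 plus Hoxd11 to Hoxa10 plus Hoxa11, in CPM per kb, was 0.0482 to 0.0826 in the WT libraries and 0.19 to 0.236 in the TNFdARE libraries.

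Hoxa5 stood at 5.61, 5.99 and 5.48 CPM in WT synovium and at 3.00, 3.05 and 3.24 CPM in TNFdARE synovium, and fell by 0.85 (SE 0.17, adjusted p = 0.0129). Replicates were tight and the groups lay far apart. Hoxa7 stood at 19.0, 17.2 and 17.8 CPM against 12.3, 14.5 and 11.2 CPM, and fell by 0.48 (SE 0.12, adjusted p = 0.0321). Hoxa10 and Hoxa13 had estimates of -0.36 (SE 0.11, adjusted p = 0.0592) and -0.50 (SE 0.15, adjusted p = 0.0527). With equal replicate numbers as a block, both were called, at adjusted p = 0.0194 and 0.0147, together with Hoxb2 (-1.55, adjusted p = 0.0327), so that 8 Hox genes were lower. The share of all genes called with the block is not given.

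Hoxc10 stood at 18.6, 12.7 and 16.0 CPM in WT synovium and at 9.95, 8.93 and 9.96 CPM in TNFdARE synovium, and fell by 0.69 (SE 0.16, adjusted p = 0.0209). The lowest WT library was still above the highest TNFdARE library. Hoxc9 stood at 5.26, 3.97 and 4.57 CPM against 2.82, 3.00 and 2.32 CPM, and fell by 0.73 (SE 0.21, adjusted p = 0.0452).

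The lower calls were close to the threshold. Hoxc9 was lost when any 1 of the 6 libraries was left out (adjusted p from 0.0596 to 0.136). Hoxa7 was lost without any library but the second TNFdARE one (0.0588 to 0.1), and Hoxc10 without WT replicate 1 or 3 or TNFdARE replicate 2 or 3 (0.054 to 0.0679). Hoxa5 and Hoxa11 held in each case. Hoxc10 was not called with all 12 libraries in the fit (adjusted p = 0.201).

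**Figure D4:**
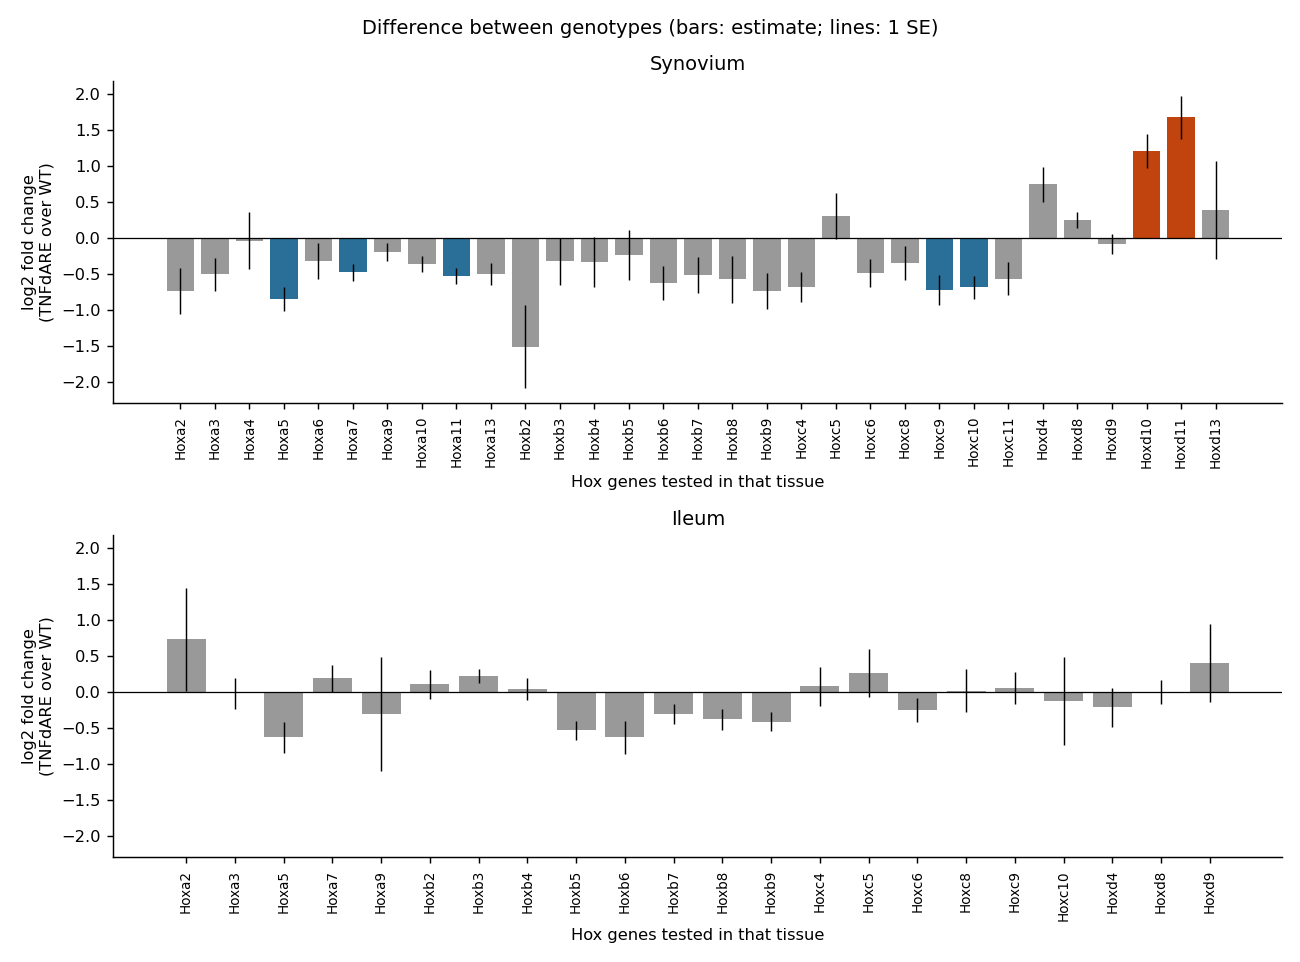
Bars give the log2 fold change of TNFdARE over WT for the tested Hox genes drawn, with lines of 1 SE, in synovium (upper panel) and ileum (lower panel); orange and blue bars passed the test as higher and lower, grey bars did not. In synovium the bars of Hoxa, Hoxb and most Hoxc genes point down and those of Hoxd10 and Hoxd11 point up, at 1.20 and 1.67.

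**Figure D5:**
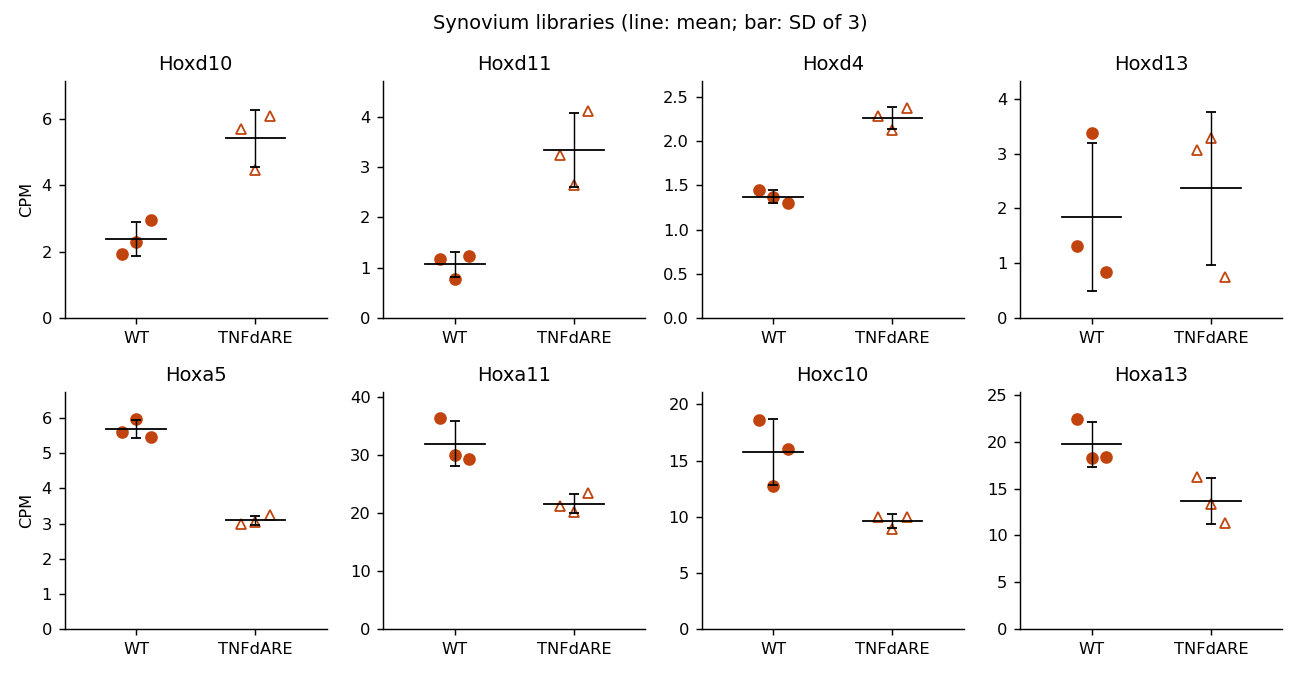
Symbols are single synovium libraries (CPM, axes from 0), with the mean as a line and the SD of 3 as a bar. Hoxd10, Hoxd11 and Hoxd4 are higher in every TNFdARE library, Hoxa5, Hoxa11, Hoxc10 and Hoxa13 are lower in every one, and Hoxd13 overlaps.

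Several cell type markers moved with genotype in the same synovium libraries. Synovial lining markers (5 of 5 detected) summed to 13691 to 15952 CPM in WT and 3847 to 4516 CPM in TNFdARE. The list was not uniform: Prg4, which makes up most of the sum, fell by 1.87 (SE 0.13), Clic5 and Tspan15 also fell, and Htra1 rose by 0.49 (SE 0.12, adjusted p = 0.0221). Summed fibroblast markers (8 of 8) overlapped, at 43425 to 85557 and 53846 to 57250 CPM, but 3 of the 8 rose: Thy1 by 1.28 (adjusted p = 0.00989), Lum by 1.04 (adjusted p = 0.00605), and Col3a1 (adjusted p = 0.0151). Col1a1 and Col1a2, the bulk of that sum, had estimates of -0.53 and -0.52 and were not called. Leukocyte markers (6 of 6) summed to 842 to 1238 and 1629 to 2050 CPM. Smooth muscle markers (7 of 7) summed to 1707 to 2094 CPM in WT and 929 to 1021 CPM in TNFdARE, and skeletal muscle markers (8 of 8) to 9027 to 18706 and 1589 to 6624 CPM.

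Chondrocyte markers (6 of 6) summed to 2624 to 3531 CPM in WT and 1549 to 1878 CPM in TNFdARE synovium. Osteoblast markers (6 of 6) summed to 1827 to 2640 and 1377 to 1481 CPM, adipocyte markers (5 of 5) to 800 to 1063 and 258 to 490 CPM, and endothelial markers (5 of 5) to 633 to 664 and 483 to 588 CPM. Neutrophil markers (6 of 6) overlapped, at 1880 to 3946 and 1407 to 4033 CPM. Nerve and glia markers summed to 109 to 149 and 95.2 to 99.3 CPM, with 1 of the 8 at 0 in each genotype, and keratinocyte markers to no more than 5.61 CPM. The part of these cell types in the Hox differences was not tested.

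Whether the genotype effect differed between synovium and ileum was tested as an interaction in all 12 libraries. No Hox gene was called among the 27 with more than 3 ileum counts, against 5.28% of all genes higher and 6.8% lower, with an unadjusted p under 0.05 for 5 (Hoxa7, Hoxb2, Hoxc4, Hoxc9 and Hoxd4), against 29.5% of all genes. DESeq2 called 1, Hoxb2 (-1.60, adjusted p = 0.0454), and the replicate block within each tissue called the same gene (-1.70, adjusted p = 0.0406). The smallest p values by edgeR belonged to Hoxa7, with a synovium effect lower than the ileum effect by an estimate of -0.69 (SE 0.22, adjusted p = 0.0602), Hoxd4 (0.93, SE 0.32, adjusted p = 0.0814) and Hoxc9 (-0.82, SE 0.29, adjusted p = 0.0843). For Hoxa7 the ileum values were 4.23, 4.45 and 4.43 CPM in WT and 5.90, 5.00 and 4.00 CPM in TNFdARE, and for Hoxc9 they were 2.63, 2.48 and 2.39 CPM against 2.35, 3.17 and 2.32 CPM. In both genes the ileum groups overlapped. Hoxd10 had an interaction estimate of 1.48 (SE 1.06, adjusted p = 0.387) that rested on 26 ileum counts, and Hoxd11, with no ileum count, was not among the 27.

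The Hox partners of the TALE homeodomain family bind DNA together with Hox proteins. Of 9 tested, 2 were higher and 3 lower in WT synovium than in WT ileum (median log2 -0.02, all genes 0.03), against 38.2% and 36.0% of all genes. Meis2 had 17.2 ± 2.75 CPM in ileum and 3.09 ± 0.85 CPM in synovium (SD, n = 3), a difference of -2.47 (SE 0.24), and Meis1 13.9 ± 1.11 against 3.52 ± 0.455 CPM, -1.98 (SE 0.24). Between genotypes, none was called in ileum, and in synovium 2 rose and 1 fell, against 13.1% and 10.7% of all genes. Pbx3 rose by 0.53 (SE 0.12, adjusted p = 0.0188).

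Polycomb proteins keep Hox genes silent and Trithorax proteins keep them active. Of 25 such regulators, 8 were higher and 6 lower in WT synovium, against 38.2% and 36.0% of all genes, and none differed by 4-fold. Cbx6, a Polycomb reader subunit, differed by 1.25 (SE 0.07) and Phc1 by 1.42 (SE 0.10). In ileum Jarid2, a partner of the methyltransferase complex, fell in TNFdARE mice from 119 ± 10.6 to 90.2 ± 3.43 CPM (SD, n = 3), by 0.40 on the log2 scale (SE 0.08, adjusted p = 0.047). In synovium 3 fell and none rose, against 10.7% and 13.1% of all genes: Cbx7 by 0.52 (SE 0.08), Rnf2 by 0.30 and Phc1 by 0.29.

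Cdx factors, retinoic acid and Gdf11 act upstream of Hox genes in the embryo. All 10 tested members of this list differed between the tissues in WT, 7 higher and 3 lower in synovium, against 38.2% and 36.0% of all genes. Cdx1 had 179 ± 11.8 CPM in WT ileum and 1 count over the 3 WT synovium libraries, and Cdx2 had 205 ± 29.9 CPM and no synovium count; both mark intestinal epithelium, and Cdx4 was at 0 throughout. Cdx1 fell in TNFdARE ileum, to 117 ± 12.6 CPM (log2 -0.61, SE 0.10, adjusted p = 0.0404). In synovium 2 of 8 tested rose and 4 fell, against 13.1% and 10.7% of all genes. Among them the retinoic acid synthesis genes Aldh1a1 and Aldh1a3 fell by 1.22 (SE 0.22) and 2.18 (SE 0.36), and the receptor gene Rarb rose by 1.26 (SE 0.27). A further synthesis gene, Aldh1a2, had 217, 215 and 628 counts in WT and 854, 734 and 993 in TNFdARE synovium, groups that did not overlap, with an estimate of 1.13 (SE 0.45, adjusted p = 0.128).

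Noncoding RNAs are also transcribed from the clusters. Of 12 RNAs and Evx genes with rows, 7 were tested, and 5 were higher and none lower in WT synovium, against 38.2% and 36.0% of all genes. Hotair, transcribed from the Hoxc cluster, had 36, 28 and 36 counts in WT synovium and 22, 27 and 17 in TNFdARE synovium, with none in ileum. Hottip, at the end of the Hoxa cluster beside Hoxa13, had 31, 16 and 15 counts against 14, 6 and 4, with none in ileum. Hoxa11os, antisense to Hoxa11, had 149 to 171 counts in WT synovium and 2 in all ileum libraries.

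By genotype, Hoxb3os fell in synovium by 1.19 (SE 0.25, adjusted p = 0.014), from 2.37 ± 0.206 to 1.01 ± 0.0321 CPM (SD, n = 3). Haglr, a noncoding RNA of the Hoxd cluster, had 6, 2 and 8 counts in TNFdARE synovium and none in any WT or ileum library. It was below the filter and not tested, and was singled out after its values were seen.

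Limb positional factors lay on the synovium side. Of 16 tested, 13 were higher in WT synovium, each by at least 4-fold, and Tbx3 was lower, also by over 4-fold. At that fold 15.6% of all genes were higher and 11.6% lower. Prrx1, a limb mesenchyme gene, had 1.80 ± 0.121 CPM in WT ileum and 287 ± 29.3 CPM in WT synovium, a log2 difference of 7.32 (SE 0.25), and Tbx18 differed by 7.54 (SE 0.44). In synovium 5 fell and none rose in TNFdARE mice, against 10.7% and 13.1% of all genes: the hindlimb selector Pitx1 by 0.74 (SE 0.13, adjusted p = 0.00701), Msx1 by 0.87 (SE 0.19, adjusted p = 0.0168), Msx2, Dlx5 and Dlx6. Prrx1 was 287 ± 29.3 CPM in WT and 273 ± 16.8 CPM in TNFdARE synovium, with an estimate of -0.05.

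Gut positional factors lay on the ileum side, with 13 of 15 tested lower in WT synovium and 2 higher, Barx1 among them, against 36.0% and 38.2% of all genes. Hnf4a, an epithelial regulator, differed by -12.73 (SE 0.24) and Gata6 by -4.97 (SE 0.13). None was called between genotypes in ileum. In synovium Foxf1, a gut mesenchyme factor, rose from 1.57 ± 0.293 to 7.83 ± 2.24 CPM (SD, n = 3; log2 2.34, SE 0.28, adjusted p = 0.00211). Of 6 tested there, 1 rose and 2 fell, against 13.1% and 10.7% of all genes, and Foxa2 fell by 2.21 (SE 0.46, adjusted p = 0.0139).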

How the data were processed

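RNA was poly-A selected, prepared with a TruSeq Stranded kit and read in 100 cycles, single read, per the labels' protocols. Cutadapt 1.15, Bowtie2 2.3.3.1 and GRCm38 are named, per the submitters' processing notes. For the counting tool and its annotation, nothing is stated in these sources. Raw counts per gene were used as the authors deposited them; 1001972 blank rows hold no values and were left out. A second deposited table, of FPKM values, was not used, since it holds no zeros and repeats values across libraries.

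Symbols, coordinates and exon lengths came from GENCODE M21 (98.7% of gene IDs matched). Counts were scaled by TMM, filtered by filterByExpr and fitted with edgeR 4.0.16 (R 4.3.3), quasi-likelihood test, Benjamini-Hochberg over all genes; a call is an adjusted p under 0.05. Tissue and interaction contrasts used all 12 libraries, genotype contrasts the 6 of 1 tissue; these comparisons share libraries. DESeq2 1.42.0, other scalings, no filter and left-out libraries were alternatives. CPM per kb divides by annotated exon length. Genes at 0 were set against a floor of 3 counts. Where a log2 value is given, its scale is that of the edgeR fit.

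Values per library, in the groups being compared, were given for the 5 highest Hox genes of each tissue, the extremes of each cluster between tissues, and all genes called by genotype or the 3 smallest p where none was; list genes are the 2 called members of smallest adjusted p. Other list genes, named to spell out a count of 5 or fewer or beside a called gene, were chosen after their values were seen. Some genes and sequences are not reported or drawn here, though they enter the counts. The members and lists were chosen with earlier results of these data known.

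Replicate numbers come from the labels. Deviations of equal numbers correlated across genotypes at 0.16 to 0.255 in ileum and 0.23 to 0.613 in synovium, over genes expressed in that tissue. They were taken to pair libraries within a tissue, though over genes expressed in both tissues ileum number 3 gave 0.069. Correlations of unequal numbers are not given. The main genotype fits left this pairing out, and the replicate block used it as an alternative, with 8 rather than 5 lower Hox calls in synovium. Across tissues the correlations of equal numbers ran from -0.116 to 0.162, and these were not taken to pair. The labels do not say that numbers mark shared animals. Kdm6a, a Trithorax-list gene singled out after its values were seen, had its most counts in number 3 of each group. In ileum it had 652, 704 and 1255 counts in WT and 836, 736 and 1235 in TNFdARE. In synovium it had 574, 624 and 942 in WT and 617, 789 and 1048 in TNFdARE. The part of sex in differences between replicate numbers was not tested. The p-values measure the spread between these libraries.

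The fits were tested on simulated data with 100 genes changed at each fold. For the tissue contrasts, all other genes were given equal means in both tissues. The fits recovered 59% of 2-fold and 84% of 4-fold changes for the WT tissue contrast and 57% and 84% for the TNFdARE one. They recovered 58% and 85% for ileum, 67% and 92% for synovium and 31% and 68% for the interaction. False calls were 8 of 151 for the WT tissue contrast, 7 of 148 for the TNFdARE one and 16 of 159 for ileum. They were 7 of 166 for synovium and 2 of 101 for the interaction. Far more genes differed in the real tissue contrasts, with 38.2% called higher and 36.0% lower in WT. The simulated rates therefore need not hold for those contrasts.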

Additional observations from a re-analysis of the deposited data

How the results depend on the processing

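No Hox value that passed the test in any fit changed sign under any alternative run. The tissue counts stayed within 1.5 times of those reported under every scaling, filter, DESeq2, 6-library and left-out-library fit. In ileum 0 Hox genes were called lower, against 1 with DESeq2 (Hoxb5), 1 with all 12 libraries in the fit (Hoxa5, adjusted p = 0.0353) and 0 to 4 without 1 library each, the 4 without TNFdARE replicate 2. In synovium 5 were called lower, against 8 with the replicate block and 2 to 4 without 1 library each: 2 without WT replicate 1 or 3 or TNFdARE replicate 3, and 3 without TNFdARE replicate 2. The interaction gave 0 lower calls, 1 with DESeq2, 1 with the replicate block within each tissue and 0 to 2 without 1 library each, 1 without TNFdARE ileum replicate 3 and 2 without TNFdARE synovium replicate 2. Where a left-out library left a pair in a group, the spread was that of the whole fit. With all 12 libraries in the synovium fit, Hoxa11, Hoxc10 and Hoxd10 were lost and Hoxb2, Hoxb9 and Hoxd4 were gained. Hoxc9 was lost with library size only (adjusted p = 0.0528) and without a filter (0.0726), and Hoxa13 was gained with library size only, without a filter and with DESeq2. Library size alone moved the median gene by 0.145 (log2) between tissues in WT and by 0.108 between genotypes in ileum. The replicate block changed no call in ileum. As a block across tissues it was fitted by edgeR in the 6 libraries of a genotype. That fit lost Hoxa5 in WT (0.41, adjusted p = 0.118) and Hoxc4 in TNFdARE (-0.63, adjusted p = 0.125) and changed no other call. Both were also lost in those 6 libraries without a block (adjusted p = 0.0762 and 0.0878). Hoxa4 in WT was gained there without the block (1.01, adjusted p = 0.0475). Shares of all genes called are not given for these alternative fits, so changes in the number of Hox calls are not read as results about Hox genes. The cause of these changes was not tested.

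Shares of the summed level without division by exon length were 5.67% for Hoxa in WT ileum, 61.1% in WT and 56.9% in TNFdARE synovium, 79.9% for Hoxb in WT ileum, 16.7% and 14.1% for Hoxc in WT and TNFdARE synovium, and 13.2% and 21.3% for Hoxd there. Groups 9 to 13 then held 26.9% in WT ileum, 25.8% in TNFdARE ileum and 62.8% in TNFdARE synovium. Depth limits the posterior genes in ileum: 3 counts correspond to 0.191 to 0.210 CPM in an ileum library, from total counts without TMM scaling.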
